A study of Sus scrofa with 32 samples.

Results

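CYP4B1 (ENSSSCG00000003894), a cytochrome P450 of family CYP4, is 1 of 25322 Ensembl gene identifiers counted in the testes of 32 male pigs, and it was chosen by its symbol after earlier results of these data had shown its difference between AS groups and its relation to androstenone. Those values are therefore given below as a description with no test. All were boars of a Danish cross between Duroc and Landrace/Yorkshire, killed near 100 kg. The submitters graded them as High AS or Low AS, where AS stands for androstenone and skatole. The pigs fell into 7 High AS pigs given chicory, 10 High AS pigs on control feed, 7 Low AS pigs given chicory, 7 Low AS pigs on control feed, and 1 pig given chicory that had no AS group. Chicory was a 15% additive fed for the last 3 days of life. No pig carried an engineered allele, and ages were not given in the labels. Each pig is 1 library, and pigs that share a sow are not fully independent.

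Androstenone is a steroid pheromone that Leydig cells of the boar testis make from pregnenolone. It collects in fat, and with skatole, a breakdown product of tryptophan made by gut bacteria, it gives boar taint. Cytochrome P450 enzymes of family CYP4 mostly hydroxylate fatty acids at the end of the chain. CYP4B1 differs from its relatives in acting on short and medium chain fatty acids and on foreign compounds such as the furan toxin ipomeanol, and in mammals it is best known from the lung.

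Depth was 1855174 to 20349500 gene counts per pig, with a median of 4061083. By their names, 8 libraries carried a number and held 10585625 counts or more, here called numbered libraries, while 24 plain libraries held 5993637 or fewer. High AS pigs gave 6 of the 8 numbered libraries, so the main fits have a term for library set. The main values are also given within each set. CYP4B1 was read in every library. It had 7 counts in the lowest library and 257 in the highest, and the counting error was between 6.24% and 37.8% of the count. In the plain libraries its log2 level did not follow depth (Pearson r = -0.0029 with log2 total counts, 24 libraries). Levels are CPM, counts divided by the library's size after scaling by TMM (a trimmed mean of gene ratios between libraries), and errors of means are SD over pigs. CPM of different genes are not scaled to transcript length and are not compared with each other here.

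Across the 32 pigs CYP4B1 ran from 2.16 to 58.8 CPM, with a mean of 20.3 ± 11.9 CPM and a median of 18.9 CPM. The highest pig had 27.3 times the level of the lowest. In the High AS pigs given chicory the level was 24.4 ± 18.4 CPM (n = 7), from 7.52 through a median of 16.7 to 58.8 CPM. The High AS pigs on control feed had 25.5 ± 6.497 CPM (n = 10), from 17.0 through 24.1 to 34.9 CPM. Low AS pigs given chicory had 14.8 ± 8.54 CPM (n = 7), from 2.22 through 16.2 to 26.4 CPM, and Low AS pigs on control feed had 14.7 ± 10.7 CPM (n = 7), from 2.16 through 12.1 to 29.8 CPM. The order of the group means was thus High AS on control feed, High AS with chicory, Low AS with chicory and Low AS on control feed. The means differed by less than the SD within either group between both High AS groups and between both Low AS groups. High AS with chicory and Low AS with chicory differed by less than the SD of the High AS pigs but by more than that of the Low AS pigs. All 4 groups overlapped. The pig with no AS group had 18.0 CPM.

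**Figure D1:**
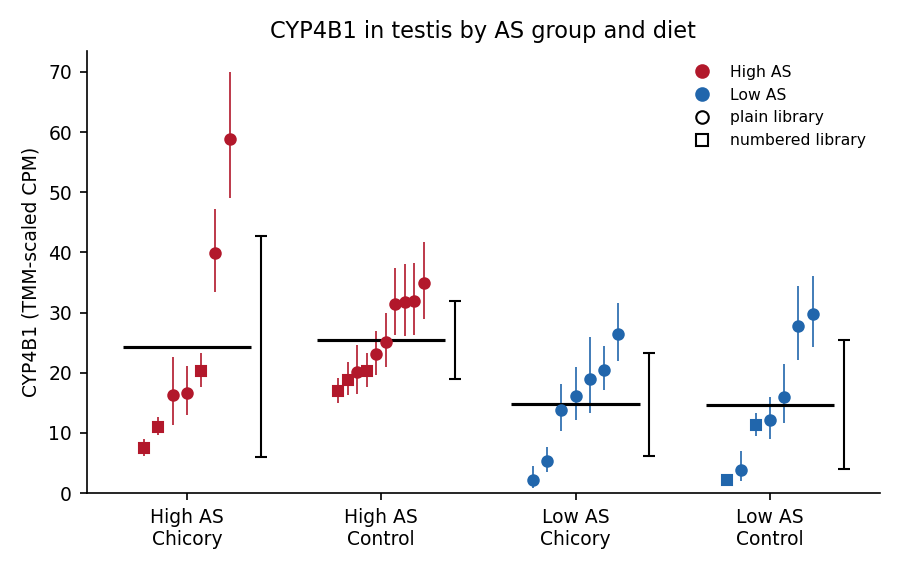
CYP4B1 level in TMM-scaled CPM (y axis, linear from 0) in 31 pigs by AS group and diet (x axis). Points are pigs with their 95% Poisson counting interval, circles are plain and squares numbered libraries, horizontal lines are group means and the capped bars beside them show 1 SD. The 2 highest pigs, at 58.8 and 39.9 CPM, were High AS pigs given chicory, and the lowest pigs of both Low AS groups were near 2.2 CPM.

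The difference between AS groups is among the values that chose the gene. CYP4B1 averaged 25.01 ± 12.3 CPM in High AS pigs (n = 17) and 14.8 ± 9.32 CPM in Low AS pigs (n = 14), a fitted log2 fold of 0.96 (SE 0.28) with diet and library set in the model. The ranges overlapped: 11 of the 17 High AS pigs lay within the range of the Low AS pigs, and 10 of the 14 Low AS pigs lay within that of the High AS pigs. In the plain libraries the means were 30.0 ± 12.2 CPM in High AS pigs (n = 11) and 16.1 ± 9.23 CPM in Low AS pigs (n = 12), with a log2 fold of 0.87 (SE 0.31). In the numbered libraries they were 15.85 ± 5.34 CPM in High AS pigs (n = 6) and 6.73 ± 6.46 CPM in Low AS pigs (n = 2). The log2 fold in this set was 1.48 (SE 0.61), with no term for sequencing lane. Both Low AS pigs of this set were in lane 6, and all its lane 7 pigs were High AS. The level was lower in the numbered set within both AS groups. Under the edgeR quasi-likelihood test at an adjusted p of 0.05, 0 of 13025 genes (0%) were called between High AS and Low AS, and 300 had an unadjusted p under 0.05, and DESeq2 and limma voom also called none.

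Androstenone was recorded for 31 pigs, and over them CYP4B1 had a log2 slope of 0.69 (SE 0.12) for each doubling of the recorded value plus 0.5 mg/kg. This contrast also chose the gene, and 3 of 13199 genes (0.0227%) were called in it by edgeR. The slope was 0.70 (SE 0.13) in the plain libraries and 0.68 (SE 0.26) in the numbered ones. The numbered slope has no term for sequencing lane, and both measures differed between its lanes. The 4 numbered libraries of lane 7 averaged 3.375 mg/kg and 17.64 CPM, and the 4 of lane 6 averaged 1.012 mg/kg and 9.495 CPM. The plain slope has no term for sequencing index set, and both measures differed between these sets. Pigs of set plain_2 averaged 2.81 mg/kg and 31.6 CPM. Those of plain_1 averaged 0.69 mg/kg and 16.4 CPM, and those of plain_3 0.83 mg/kg and 19.6 CPM. The 4 pigs listed at 0 mg/kg, all Low AS, had 12.1, 5.26, 3.91 and 2.22 CPM. They were the lowest values among the plain libraries, where the next pig had 13.9 CPM. Low AS pigs between 0.1 and 0.8 mg/kg averaged 13.8 ± 6.62 CPM (n = 6), and Low AS pigs above 0.9 mg/kg averaged 24.98 ± 6.17 CPM (n = 4). High AS pigs up to 2 mg/kg averaged 21.2 ± 9.32 CPM (n = 10), and those above 2 mg/kg averaged 30.4 ± 14.7 CPM (n = 7). All 4 Low AS pigs above 0.9 mg/kg had plain libraries, in which the mean of all High AS pigs was 30.0 CPM.

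**Figure D2:**
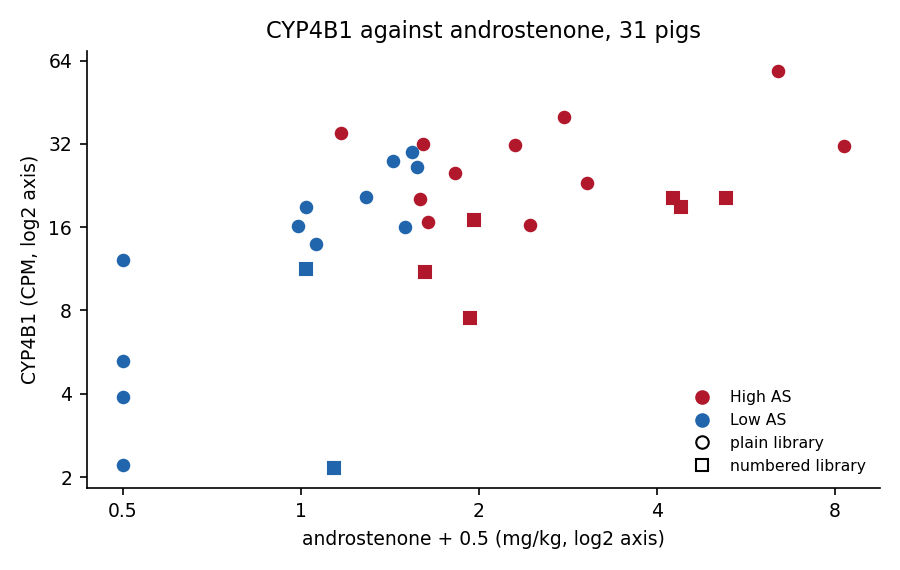
CYP4B1 level in CPM (y axis, log2) against androstenone plus 0.5 mg/kg (x axis, log2) in 31 pigs, High AS in red and Low AS in blue, circles for plain and squares for numbered libraries. The 4 pigs at 0 mg/kg stand at the far left between 2.22 and 12.1 CPM, and the pig with 5.9 mg/kg had the highest level, 58.8 CPM.

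Inside each AS group the slope was fitted over the same pigs whose values chose the gene, so it is a description and no separate support. It was 0.38 (SE 0.14) within the High AS pigs. Within the Low AS pigs, which include the 4 pigs at 0 mg/kg, it was 1.26 (SE 0.32). The difference between these slopes was not tested. Some pigs left the pattern. The pig with the highest concentration, 7.77 mg/kg in High AS control replicate 10, had 31.5 CPM, about the level of High AS control replicate 7 with 31.9 CPM at 1.11 mg/kg. Low AS control replicate 7 had the lowest level of all, 2.16 CPM from 36 counts, at 0.64 mg/kg, and High AS control replicate 5 had 34.9 CPM at 0.67 mg/kg. Litters of the same sow gave a comparison with a shared mother, also as a description. Pigs of both AS groups came from 7 sows, and the mean was higher in the High AS pigs of 6 of them. In 5 sows every High AS pig was above every Low AS pig. These counts compare CPM with no adjustment for library set, and some sows had pigs in both sets. In sow 931 the 2 High AS pigs had 39.9 and 31.7 CPM, against 15.97 CPM in the Low AS pig. In sow 1109 the High AS pig had 7.52 CPM, against 2.16 CPM in the Low AS pig. Sow 210 had a higher High AS mean through 1 pig: its High AS pigs had 58.8, 18.9 and 11.1 CPM, and its Low AS pigs had 27.7 and 20.5 CPM. The levels of 18.9 and 11.1 CPM came from numbered libraries and the others from plain ones. Sow 641 had a mean of 25.9 CPM in High AS pigs and 26.4 CPM in the Low AS pig. Its High AS pigs had 20.3 CPM in a numbered library and 31.5 CPM in a plain one, and its Low AS pig had a plain library. With each sow as a block, and library set in the model, the log2 fold was 0.83 (SE 0.24).

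No difference in CYP4B1 with chicory was detected. Levels were 19.6 ± 14.7 CPM in pigs given chicory (n = 14) and 21.0 ± 9.83 CPM in pigs on control feed (n = 17). The log2 fold was -0.11 (SE 0.27), with an adjusted p of 0.9999 over 13025 genes in edgeR's quasi-likelihood test. This test called 1 of the 13025 genes (0.00768%), and CYP4B1 was not that gene. The log2 fold was -0.07 (SE 0.25) within High AS pigs and -0.27 (SE 0.53) within Low AS pigs. The interaction of AS group and diet was 0.10 (SE 0.56, adjusted p = 0.982 in edgeR), where 0 of 13025 genes (0%) were called and 473 had an unadjusted p under 0.05. DESeq2 and limma voom also called none, and the sign of the interaction for CYP4B1 changed with the model, to -0.16 with limma voom. The largest spread was among the High AS pigs given chicory, where the 2 plain libraries of replicates 3 and 4 had 58.8 and 39.9 CPM and the other 5 pigs had 7.52 to 20.3 CPM.

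The breeding value of the sire is an estimate of the androstenone level it passes on. Mean CYP4B1 was higher in each higher bin of this value, but the slope did not pass the test over all genes. Pigs of sires below -0.3 had 13.6 ± 11.4 CPM (n = 7), those from -0.12 to -0.08 had 18.45 ± 10.1 CPM (n = 9), those from 0.08 to 0.14 had 22.8 ± 10.7 CPM (n = 6) and those from 0.2 to 0.36 had 25.2 ± 13.2 CPM (n = 10). The ends of the scale went the other way: 34.9 and 18.0 CPM at the lowest value, -0.49, and 20.3 and 16.3 CPM at the highest, 0.36. The log2 slope was 0.12 (SE 0.054) per 0.1 of the value in 32 pigs, with an unadjusted p of 0.0266 and an adjusted p of 0.431 in edgeR. In this comparison 2 of 13009 genes (0.0154%) were called and 1346 had an unadjusted p under 0.05. The slope was 0.13 (SE 0.061) in the plain libraries and 0.11 (SE 0.098) in the numbered ones. The sequencing index sets followed the sire's value, and with index set in place of library set the slope was 0.05 (SE 0.079). The sire's value is not independent of the contrast that chose the gene, since it had an r of 0.61 with log2 androstenone over 31 pigs. With androstenone in the model the slope was -0.00602 (SE 0.055).

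**Figure D3:**
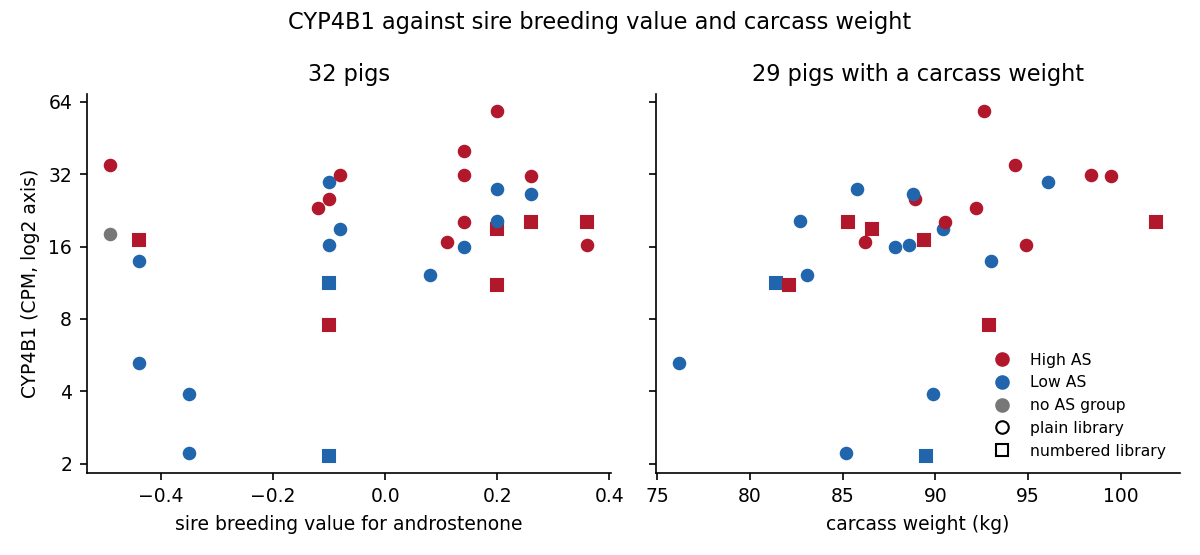
CYP4B1 level in CPM (y axes, log2) against the sire's breeding value for androstenone in 32 pigs (left) and carcass weight in kg in the 29 pigs that had one (right), High AS in red, Low AS in blue and the pig with no AS group in grey, circles for plain and squares for numbered libraries. Pigs under 4 CPM occur at sire values of -0.35 and -0.1, and the lightest carcass, 76.2 kg, had 5.26 CPM.

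Carcass weight was given for 29 pigs. The High AS pigs averaged 91.7 kg, against 87.0 kg for the Low AS pigs. CYP4B1 had a log2 slope of 0.31 (SE 0.13) per 5 kg, with an unadjusted p of 0.0273 and an adjusted p of 0.999 in edgeR. No gene passed (0 of 13413, 0%), while 221 had an unadjusted p under 0.05, and DESeq2 and limma voom also called none. The slope was 0.46 (SE 0.17) in plain and 0.15 (SE 0.24) in numbered libraries. Carcass weight moved with log2 androstenone too, with an r of 0.50 over 29 pigs. The slope was 0.17 (SE 0.14) with AS group in the model and 0.03 (SE 0.12) with androstenone in it. Skatole was given for 12 pigs, of which 8 had plain libraries. In these 8 its Pearson r with CYP4B1 was 0.35 (exact permutation p = 0.397, two-sided) and Spearman's rho was 0.48 (exact permutation p = 0.243). Without the 2 pigs farthest from the median of skatole the Pearson r was 0.91 (exact permutation p = 0.0125, n = 6), and with all 12 pigs centred by library set it was 0.32 (permutation p = 0.306). The relation with skatole therefore rests on which pigs are taken.

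Among genes with a symbol, those that moved most closely with CYP4B1 over the 24 plain libraries were led by SRD5A1. Each of 11557 genes was given a Pearson r with CYP4B1 on log2 CPM. The libraries behind these points share depth and cell make-up, so no p is given. Over all genes the median r was -0.000891 and the range from the 5th to the 95th percentile was -0.31 to 0.34. An r of 0.6 or more was reached by 45 genes (0.389%), of which 33 had a symbol. The gene with a symbol most like CYP4B1 was SRD5A1, a steroid 5-alpha-reductase, the kind of enzyme that makes the last step to androstenone, with an r of 0.87 in plain libraries (0.84 to 0.90 leaving out each library in turn) and 0.81 in the 8 numbered libraries.

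SRD5A1 averaged 64.5 ± 29.7 CPM in High AS pigs and 46.0 ± 19.6 CPM in Low AS pigs, and its androstenone slope was 0.44 (SE 0.083). These values are a description with no test, since SRD5A1 was picked for its likeness to a gene chosen on androstenone. The pig with most CYP4B1 also had most SRD5A1, 162 CPM, and the 4 pigs with under 6 CPM of CYP4B1 had 21.7 to 27.6 CPM of SRD5A1, the lowest 4 of all 32.

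The other partners are described by what each encodes, and no theme was tested among them. Redox enzymes of retinoids and carbonyls were DHRS4 (r = 0.72 in plain and 0.96 in numbered libraries), a carbonyl and retinal reductase, and RDH12 (0.72 and 0.88), a retinol dehydrogenase. Conjugating enzymes were GSTO1 (0.70 and 0.91), an omega-class glutathione transferase, and SULT1C3 (0.66 and 0.91), a sulfotransferase. ALAS1 (0.74 and 0.79) makes the first committed step of haem synthesis, and haem is the cofactor of every P450. PANK1 (0.74 and 0.79) starts coenzyme A synthesis, and SCARB1 (0.68 and 0.74) is the receptor that takes cholesterol esters from high density lipoprotein. MGARP (0.76 and 0.86), a mitochondrial protein, TMEM100 (0.73 and 0.70), a membrane protein, and GCA (0.67 and 0.77), a calcium-binding protein, were also high in both sets.

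The remaining 4 of the 15 were weaker in the numbered set. PC, pyruvate carboxylase, had an r of 0.68 in plain and 0.34 in numbered libraries, FBLN2, a matrix protein, had 0.66 and 0.37, and TANC1, a scaffold protein, had 0.76 and 0.17. ALDH3A1, an aldehyde dehydrogenase, had 0.66 in plain and -0.39 in numbered libraries, and its plain value was 0.44 without Low AS chicory replicate 7. In the numbered libraries, which did not choose these genes, 14 of the 15 had a positive r, against 51.7% of all genes. An r of 0.5 or more was reached by 11 of them, against 9.99% of all genes. The numbered r were not adjusted for sequencing lane. After diet, index set and androstenone were taken out of the plain libraries, the r of the 15 was 0.52 to 0.79, with a median of 0.68 against -0.01 over all genes. These are libraries that chose the 15 genes, so a high residual r was likely from the choice and is no separate support.

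**Figure D4:**
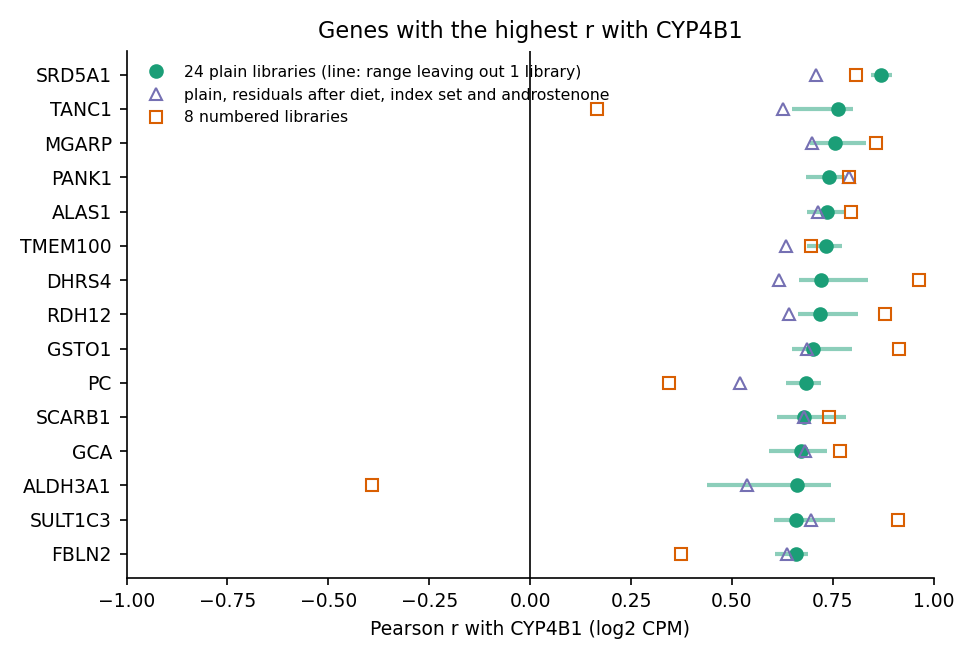
Pearson r with CYP4B1 on log2 CPM (x axis) for the 15 genes with a symbol that had the highest r over 24 plain libraries (y axis). Filled circles are the plain libraries with a line for the range leaving out 1 library, triangles are residuals after diet, index set and androstenone, and open squares are the 8 numbered libraries. The squares lie at 0.5 or more for 11 genes and below 0 for ALDH3A1.

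The genes with the lowest r were less stable. FBXL16, an F-box protein, had an r of -0.68, ABCB10, a mitochondrial transporter, -0.64, LYPD4, a sperm membrane protein, -0.64, BNIP2 -0.62 and PDIA3, a protein disulfide isomerase, -0.58. NCAPG2, PAIP2, FOXR1, ELAC2 and MND1 followed between -0.56 and -0.54. In the numbered libraries 6 of these 10 had a negative r, against 48.3% of all genes.

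Markers of 15 cell types were compared by the same r, and the Leydig list stood highest. Of its 16 genes 13 were in the files under their symbol and 11 passed the filter on low counts. Of these, 10 had a positive r and 8 lay among the top 5% of all genes, and the median r was 0.52 (jackknife SE 0.16). The highest members were SCARB1 (0.68) and CYP17A1 (0.65), which makes the precursors of androgens and of androstenone. CYB5A (0.55), the cytochrome b5 that steers CYP17A1 to androstenone synthesis in the pig, CYP11A1 (0.55), which cuts the cholesterol side chain, LHCGR (0.52), the luteinising hormone receptor, and INSL3 (0.46), the peptide hormone of Leydig cells, were also high. FDXR (0.39), HSD11B1 (0.30) and NR5A1 (0.21) were lower, and HSD17B3, which makes testosterone, had -0.11. In the numbered libraries the median was 0.74, and 9 of the 11 had a positive r. There INSL3 had 0.93 and CYP17A1 0.84, while NR5A1 had 0.38, HSD11B1 -0.01 and HSD17B3 -0.32. STAR, HSD3B1 and FDX1 were not analysed here, and IGF1 and PRLR had too few counts in the plain libraries.

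No other cell type list with at least 3 measured genes had a median above 0.21 in the plain libraries. Endothelium came next with 0.21 over 7 genes, led by KDR (0.43), ROBO4 (0.42) and ERG (0.38), but its median was 0.05 in the numbered libraries. Sertoli cells had 0.11 over 10 genes in plain and -0.28 in numbered libraries, led in the plain set by INHA (0.29), TJP1 (0.26) and SOX9 (0.16), with DHH at -0.40. Lymphatic endothelium had 0.09 (PROX1, FLT4 and MMRN1), fibroblasts 0.07 (led by FBLN5, COL3A1 and COL1A2) and macrophages 0.05 (led by C1QA, LYZ and MRC1). Peritubular and smooth muscle cells had 0.01, with NOTCH3 alone at 0.58 and CNN1 and TAGLN at 0.15 and 0.14. On the residuals after diet, index set and androstenone the Leydig median was 0.51, the Sertoli median 0.35, the endothelial median 0.27, the macrophage and fibroblast medians 0.20 each, and the round and elongating spermatid medians -0.26 and -0.32.

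Germ cell lists had medians between -0.18 and 0.03. Elongating spermatids had 0.03 in plain and 0.10 in numbered libraries (12 genes, 9 of them positive in the plain set, led by ODF2, AKAP4 and GAPDHS), round spermatids -0.11 (12 genes, none positive, from -0.18 to -0.03), spermatocytes -0.12 (11 genes, led by TEX11, MLH3 and SPO11) and spermatogonia -0.18 (6 genes, led by ID4 at 0.20). Only 1 or 2 genes could be used for blood (HBB, 0.30), for rete and epididymis (KRT8, 0.28, and ADAM28, 0.13) and for lymphocytes and mast cells (KIT, -0.05, and CD2, -0.22), and none for adipocytes. Every library was labelled testis, and the sperm protamine gene PRM1 and the transition protein gene TNP1 had a mean log2 CPM of 13.31 and 12.63 in the plain libraries.

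**Figure D5:**
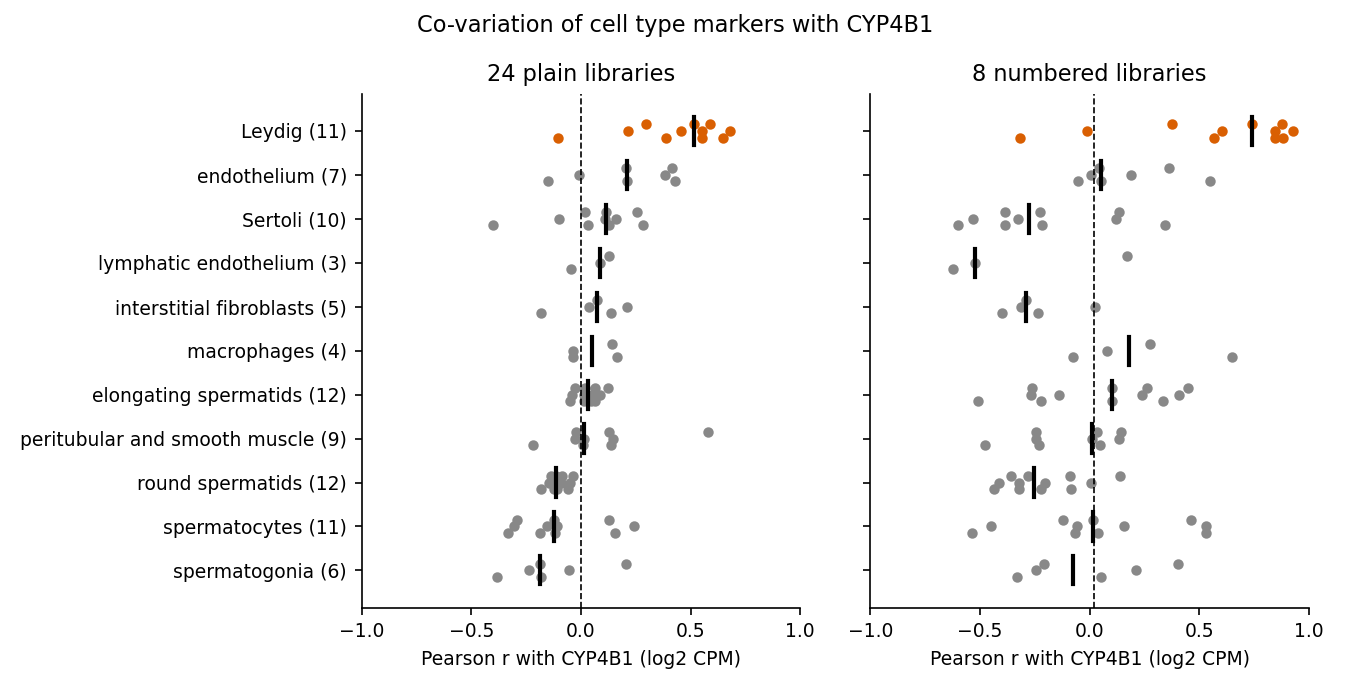
Pearson r with CYP4B1 on log2 CPM (x axes) of each measured marker gene, by cell type list with the number of genes (y axis), in 24 plain libraries (left) and 8 numbered libraries (right). Black bars are list medians, the dashed line is the median over all genes and Leydig genes are in orange. The Leydig median is 0.52 in plain and 0.74 in numbered libraries.

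Leydig markers and CYP4B1 did not move together in every pig. In bulk tissue fewer Leydig cells and less RNA per Leydig cell cannot be told apart. The mean log2 CPM of the 12 Leydig markers that passed the filter over all libraries, with IGF1 among them, was compared with CYP4B1. Its r was 0.48 in plain and 0.84 in numbered libraries. The 2 pigs with least CYP4B1 show how it can part. Low AS control replicate 7 had 2.16 CPM of CYP4B1 with 67.8 CPM of INSL3 and 87.5 CPM of CYP17A1, the lowest of all pigs in each. Low AS chicory replicate 7 had 2.22 CPM of CYP4B1 with 1312 CPM of INSL3 and 931 CPM of CYP17A1, and its Leydig mean of 6.16 was above the median of either AS group. Without that pig the r in the plain libraries was 0.68, the highest value leaving out 1 library. The lowest was 0.40, without Low AS chicory replicate 6.

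The Leydig mean itself was 6.01 ± 0.51 in High AS pigs (n = 11) and 5.82 ± 0.64 in Low AS pigs (n = 12) of the plain set, and 5.49 ± 0.36 in High AS pigs (n = 6) and 4.96 ± 0.57 in Low AS pigs (n = 2) of the numbered set. Of the 12 Leydig genes tested between High AS and Low AS, 8 had a positive log2 fold and none passed, with a median of 0.28 against 0.007 over all genes. With the Leydig mean in the model CYP4B1 had a log2 fold of 0.79 (SE 0.24) between High AS and Low AS and an androstenone slope of 0.60 (SE 0.095).

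Against the sire's value, where CYP4B1 had a slope of 0.12, 3 of the 12 Leydig genes had a positive slope and none passed. Their median was -0.01, near the median of -0.006 over all genes. The slope of CYP4B1 with the Leydig mean in the model was 0.14 (SE 0.042, adjusted p = 0.238 in edgeR). The 15 partners had a median slope of 0.02, from -0.002 to 0.11, and none passed. Against carcass weight all 15 partners had a positive slope, with a median of 0.27 per 5 kg. Of the 12 Leydig genes 10 did, with a median of 0.14, against 0.004 over all genes, and again none passed. With chicory 12 of the 15 partners had a negative log2 fold, with a median of -0.17 against 0.005 over all genes, and none passed. The partners were picked for a high r with CYP4B1 over the plain libraries. A sign shared with CYP4B1 was thus likely from the choice and is no separate support. Differences between these genes and CYP4B1 were not tested.

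Genes that could act with CYP4B1 were also followed. Of its own family CYP4F22 was the only other member found under its symbol, and it had a count in 14 of 32 libraries and did not pass the filter. P450 redox partners and enzymes of fatty acid omega oxidation had a median r of 0.29 over 10 genes. ALDH3A1 (0.66) and CYB5A (0.55) are given above. The hydrolase of epoxides EPHX1 had 0.51, CYB5R3, the reductase of cytochrome b5, had 0.51 and ALDH3A2, which oxidises fatty aldehydes, had 0.25. ADH5 (0.03), ALDH1A1 (0.01), CYB5R1 (-0.09) and EPHX2 (-0.26) showed little or a negative r. Genes of androstenone synthesis had a median of 0.55 over 6 genes, being SRD5A1, CYP17A1, CYB5A, CYP11A1 and CYB5R3 as above and HSD17B4 (0.13), and their median was 0.85 in the numbered libraries. The list of P450s and flavin monooxygenases of foreign compounds, which includes the receptor AHR, had a median of 0.15 over 6 genes. Of these 4 were positive, with FMO5 (0.19), AHR (0.17) and CYP2E1 (0.17) highest. In the numbered libraries their median was -0.11, with 1 of the 6 positive. The bile acid enzyme CYP39A1 (0.09) and the sterol demethylase CYP51A1 (0.00) had values near the median of all genes.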

How the data were processed

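The deposited files hold whole-number read counts per gene, 1 table per pig, with no normalization by the authors. Per the labels' protocols, a Qiagen kit gave the RNA and a stranded TruSeq mRNA kit the libraries. The submitters' processing notes name HTSeq 0.6.0, SAMtools 1.3.1, STAR, cutadapt 1.8.1 and Trimmomatic 0.33. Which STAR version, strand setting, annotation and genome build they used was not given in the sources used here. No coordinates are therefore printed, and antisense genes and near-identical relatives of CYP4B1 could not be separated. The 5 closing rows of each table stayed out. They held reads outside genes (20.6% to 39.6% of a library), reads without an alignment (6.02% to 10.9%), multiply aligned reads (5% to 6.63%), poorly aligned reads (0.0201% to 0.0794%) and reads in overlapping genes (0.021% to 0.0438%). A table of identifiers and symbols named 11804 of the 25322 genes.

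Counts were filtered with filterByExpr and scaled by TMM, and log2 CPM used a prior count of 2. Tests were edgeR 4.0.16 quasi-likelihood fits in R 4.3.3 (glmQLFit and glmQLFTest), with Benjamini-Hochberg adjustment over all genes tested and a threshold of 0.05. Models held diet and library set beside the term of interest, and AS group for the diet comparison. An SE is the coefficient divided by the square root of F. Androstenone entered as log2 of mg/kg plus 0.5 and skatole as log2 of mg/kg plus 0.05. Correlations over the plain libraries used genes passing filterByExpr with a diet design. The residual correlations used 23 plain libraries, since 1 pig had no androstenone value. The genes named are CYP4B1, the 15 highest and 10 lowest r among genes with a symbol, the 3 highest members of each marker list and any below -0.4, and every detected gene of the CYP4, redox and omega oxidation, and androstenone synthesis lists. FMO5, AHR, CYP2E1, CYP39A1 and CYP51A1 came by the same rule, and further Leydig, germ cell and single genes were named after their values were seen. Some listed genes are not reported here. The gene and the lists were chosen with earlier results of these data known.

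Groups came from the labels. Replicate numbers follow accession order and pair nothing. Pigs share 14 sows and 12 sire values, so p-values over pigs are too small to an unknown degree. The smallest chi-square of 108 library pairs within groups was 7.24 per degree of freedom, so no pair agreed within sampling noise. Counting intervals are exact Poisson and cover counting error only. Alternatives used DESeq2 1.42.0, limma 3.58.1 (voom), other covariates, each library set alone and each library left out. The fits were tested on simulated data. No sequence of CYP4B1 is printed, since none was used here.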

Additional observations from a re-analysis of the deposited data

Results flagged for a closer look

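Over 8 tests of groups of 4 to 10 pigs, 1 value stood apart by the gap to its nearest neighbour: the Leydig list mean of High AS control replicate 5, 6.96 log2 CPM, the highest of its 10 pigs. That pig had 34.9 CPM of CYP4B1, rank 3 of the 32, 3058 CPM of CYP17A1, 0.67 mg/kg of androstenone and 0.615 mg/kg of skatole. Chance flags about 1 in 20 such groups, and the origin of the value was not tested.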

How the results depend on the processing

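The AS log2 fold stayed between 0.72 and 1.48 over 43 alternatives and the androstenone slope between 0.49 and 0.81 over 45. The carcass weight slope stayed between 0.03 and 0.46 over 42 and the diet log2 fold between -0.52 and -0.0045 over 45, and neither was called in any of them. Leaving out each pig gave an AS log2 fold of 0.82 to 1.06, an androstenone slope of 0.63 to 0.81, a diet log2 fold of -0.24 to -0.02, a sire slope of 0.10 to 0.16 and a carcass weight slope of 0.25 to 0.35. The interaction of AS group and diet turned negative with limma voom (-0.16), with no term for library set (-0.13) and with index set in place of library set (-0.0856), and was 0.48 in the plain libraries alone. The sire slope turned negative with androstenone added (-0.00602), and in no alternative was it called. The Leydig median r was 0.74 in the numbered libraries, and 0.44 to 0.64 leaving out each plain library. The skatole r was 0.91 without the 2 pigs farthest from the median. The cause of these changes was not tested.

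The number of genes called for androstenone, 3 in the report, was 7 with DESeq2 or an offset of 0.1 mg/kg, 9 with no filter on low counts, 12 with the Leydig mean added, and 0 with index set, carcass weight or sow in the model or with no library set term. For the sire's value, 2 in the report, it was 17 with DESeq2, 8 with no filter, and 0 with index set, with androstenone added or in the plain libraries. Fits in the numbered libraries alone, with the Leydig mean and, for the sire's value, with AS group were chosen after seeing the data. Replicate numbers follow accession order, so blocking was by sow alone. The library with 7 counts had 2.22 CPM with a 95% Poisson interval of 0.892 to 4.57 CPM.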

Other observations

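CYP4B1 levels of pigs from the same sow resembled each other: over 28 pigs of 10 sows the intraclass correlation of log2 CPM after library set was 0.61. Both pigs of sow 1134 were low, at 3.91 and 2.22 CPM with androstenone at 0 mg/kg in each, and both pigs of sow 1109 were low within the numbered set, at 7.52 and 2.16 CPM with 1.43 and 0.64 mg/kg. The 5 pigs of sow 210 spanned 11.1 to 58.8 CPM. Most pigs of a sow also have the same sire value, but some values were shared between sows. At -0.1 the pigs of sow 1139 averaged 17.55 CPM, those of sow 1109 averaged 4.84 CPM and 1 pig of sow 930 had 29.8 CPM. Whether sow or sire goes with the likeness was not tested.

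The gene with the highest r of all with CYP4B1 had no symbol in the table used. ENSSSCG00000026109 had an r of 0.89 in plain and 0.93 in numbered libraries, and ENSSSCG00000030872, rank 3, had 0.80 and 0.98. SRD5A1 stood between them.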
